A study of Homo sapiens with 16 samples.

Results

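A set of 10 named genes of the endoplasmic reticulum (ER) stress response and of ER protein folding were followed in ribosome profiling and RNA-seq libraries of human breast cancer cells. They were HSPA5, HSP90B1, HYOU1, CALR, CANX, PDIA3, PDIA4, PDIA6, XBP1 and HERPUD1, found by name in the annotation of the listed transcripts. All 10 were found among the 10823 genes listed. Both kinds of value passed a minimum mean of 10 for 10 of them in MDA-LM2 against parental cells (8393 genes tested) and for 9 in the HNRNPC knockdown (4283 genes tested), where the footprint values of XBP1 were below the minimum.

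The samples came from 4 lines, all of the MDA-MB-231 background, a triple receptor negative breast cancer line. Parental MDA-MB-231 cells metastasise poorly, and MDA-LM2 is their derivative that colonises the lung. The sgControl and sgHNRNPC lines are MDA-MB-231 cells made for CRISPR interference, in which a dCas9-KRAB repressor is steered by a control guide or by a guide against HNRNPC, an RNA-binding protein that recognises poly(U). The labels of parental and MDA-LM2 cells name no guide, and both CRISPR interference lines share the repressor and the viral transduction. Each line had 2 libraries of ribosome-protected footprints (RPF) and 2 of RNA, 16 in all, and the study describes its sequencing experiments as biological duplicates. Values are normalised read counts per transcript, and each pair of lines was normalised as a table of its own. Translational efficiency (TE) is the RPF value divided by the RNA value.

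The lines are named from the sample titles, and a few markers of breast cancer cells were read beside them. VIM and CD44, which mesenchymal breast cancer cells express, had normalised RNA counts from 12132.5 to 44869.5 and from 2573 to 5447 over the 8 RNA libraries. The hormone receptor genes ESR1 and PGR and the epithelial CDH1 are not listed in either table. ERBB2 was listed at 707.6 to 811.8 in parental and MDA-LM2 RNA and at 126.7 to 180.2 in sgControl and sgHNRNPC RNA. HNRNPC, the gene repressed in the knockdown, had RNA counts of 2162 and 2146 in sgControl and of 1147 and 1183 in sgHNRNPC cells, a fall by 0.89 ± 0.05 on the log2 scale. On the listed transcripts, RNA libraries of parental and MDA-LM2 cells had between 7517953 and 8193031 reads. Those of sgControl and sgHNRNPC cells had between 5141959 and 6164753. These counts were inferred from the steps of the normalised values. The largest transcript made up 3.47% to 5.83% of the RNA total in parental and MDA-LM2 libraries. It made up 18.1% to 21.1% in sgControl and sgHNRNPC libraries. The depth of the RPF libraries is unknown, and their normalised totals were 650736 to 679726 and 158011 to 167928.

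Secretory and membrane proteins enter the ER as they are made, and are folded there by chaperones before they travel on. When unfolded proteins build up, the sensors ERN1 (IRE1), EIF2AK3 (PERK) and ATF6 start the unfolded protein response. ERN1 cuts an intron from XBP1 mRNA, ATF6 is cleaved to a transcription factor, and PERK phosphorylates eIF2, which lowers general translation while ATF4 is made. The transcription factors XBP1 and ATF6 raise chaperone genes through ER stress response elements in their promoters. Cancer cells with a high secretory load are known for strong expression of these chaperones.

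The promoter elements through which these factors act are shown first, because genes that share them differ in their changes below. Both types of this element were searched on both strands in RefSeq promoter windows (GRCh38.p14) of 250 bases before to 50 bases after each start. The ER stress response element was searched as CCAAT and CCACG with any 9 bases between them, and the type II element as ATTGG and CCACG with any 1 base between them. The first was present in 27 of 35116 windows (0.0769%) and the second in 19 (0.0541%). Of the 10 genes, 6 held the first and 2 the second, in 8 and 2 of their 15 windows. A match is a description of letters and not evidence of a bound factor. Capitals mark the fixed letters of the motif, and each line reads 5′ to 3′ on the strand named.
HSPA5, chr9:125241391-125241409, minus strand: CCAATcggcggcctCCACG
HSP90B1, chr12:103930216-103930234, plus strand: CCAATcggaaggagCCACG
HSP90B1, chr12:103930321-103930339, minus strand: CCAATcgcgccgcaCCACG
CALR, chr19:12938384-12938402, minus strand: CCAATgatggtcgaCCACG
CANX, chr5:179698778-179698796, plus strand: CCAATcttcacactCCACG
PDIA6, chr2:10812853-10812871, minus strand: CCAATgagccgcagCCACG
XBP1, chr22:28800603-28800621, minus strand: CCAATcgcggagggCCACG
HERPUD1, chr16:56932025-56932035, plus strand: ATTGGgCCACG
HYOU1, chr11:119057380-119057390, plus strand: ATTGGaCCACG
HYOU1, chr11:119057274-119057284, plus strand: ATTGGaCCACG

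Distances are from the RefSeq start of each window, which need not be that of the listed transcript. The element of HSPA5 began 66 bases before it and that of XBP1 52. That of PDIA6 began 86 bases before a RefSeq start that lies inside the longer listed transcript, and the window of its upstream start held none. The HSP90B1 promoter held the element at both 194 and 89 bases before the start. HYOU1 held the type II element at both 185 and 79 bases before the start. The match in CANX fell in the windows of several start sites, at different distances. The windows of PDIA4 held neither. PDIA3 had no promoter window.

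The level of each gene in each line was compared per kilobase, with RNA over the length of the listed transcript and RPF over its coding length. Positions are among the genes tested whose transcript had a coding length in the annotation, 8208 in the table of parental and MDA-LM2 cells and 4190 in that of the knockdown. CALR, the soluble lectin chaperone calreticulin, had the highest mean of the 10 at both levels in every line. In MDA-LM2 footprints its replicates overlapped those of HSPA5. In parental cells CALR RNA was 7977 and 7485 normalised counts per kilobase, above 99.0% of genes, and its RPF value was 517.4 and 479.8 per kilobase, above 97.7%. In sgControl cells CALR RNA was 2972 and 2778 per kilobase, above 98.5% of genes. The other abundant members were CANX, the membrane-bound lectin chaperone calnexin, HSPA5 (BiP), the Hsp70-type chaperone of the ER, and HSP90B1, its Hsp90-type chaperone.

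By RPF per kilobase the order of the genes in parental cells was CALR, CANX, HSPA5, HSP90B1, PDIA3, PDIA4, PDIA6, HYOU1, XBP1 and HERPUD1. No neighbours in that order overlapped between their replicates. In sgControl cells the order was the same down to HYOU1, with the replicates of CANX and HSPA5 overlapping, those of PDIA4 and PDIA6 overlapping, and HERPUD1 and XBP1 overlapping at the bottom. In MDA-LM2 cells HSPA5 stood second, with replicates within the range of CALR, and in sgHNRNPC cells CANX, HSPA5, PDIA3 and HSP90B1 formed a chain of overlapping neighbours. The lowest RPF values per kilobase in each line were those of HERPUD1, a membrane protein of ER-associated degradation, and the transcription factor XBP1.

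By RNA per kilobase the order depended on the table. In parental cells PDIA4 (1325 and 1260 per kilobase) stood second and HSP90B1 (701.4 and 765.5) lower, with the replicates of HSP90B1 overlapping those of HSPA5. In sgControl cells HSP90B1 (1949 and 1810) stood second and PDIA4 (499.7 and 480.6) below CANX and HSPA5. PDIA3, the oxidoreductase ERp57 that works with both lectin chaperones, had 112.9 and 131.7 per kilobase in parental cells and 379.8 and 370.1 in sgControl cells. HYOU1, the large Hsp70-related nucleotide exchange factor of HSPA5, had 920.3 and 890.4 in parental and 282.5 and 251.8 in sgControl cells. The tables were normalised separately, so these are positions within a table and no test was run across them.

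**Figure D1:**
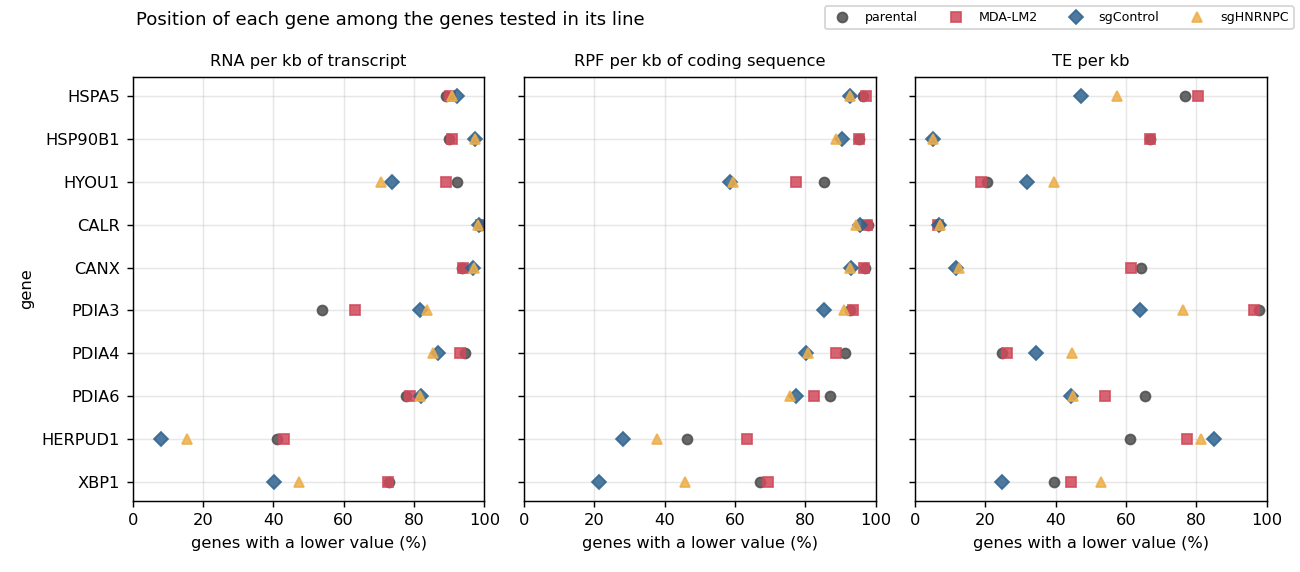
Position of each of the 10 genes among the genes tested and matched to the annotation in each line, as the percentage of genes with a lower value, for RNA per kilobase of transcript (left), RPF per kilobase of coding sequence (middle) and TE per kilobase (right). Points are means of 2 replicates, and XBP1, not tested in the knockdown table, is placed against the genes that were. CALR lies above at least 94.5% of genes in RNA and RPF in all 4 lines and above 6.56% to 7.06% in TE, while PDIA3, HSP90B1 and CANX change their TE position between the tables.

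This difference between tables moved with base composition. Across 4189 of the 4280 genes tested in both, those whose transcript matched the annotation, the RNA difference of parental minus sgControl cells had a Pearson r of 0.826 and a Spearman rho of 0.838 with the GC content of the transcript, a slope of 1.34 on the log2 scale per 10 percentage points. For RPF values r was 0.083 and rho 0.10. These points share their libraries, and the correlation is given as a description. Among the 10 genes the RNA difference ran from -1.62 in PDIA3 (43.4% GC) and -1.36 in HSP90B1 (41.8%) to 1.43 in CALR (53.8%) and 1.76 in HYOU1 (55.4%). The RPF difference of the same genes stayed between 1.43 in HERPUD1 and 2.53 in XBP1.

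The ratio of CALR to PDIA3 per kilobase shows the size of that difference. In RNA it was 70.7 and 56.8 in parental and 42.7 and 30.1 in MDA-LM2 libraries, but 7.83 and 7.51 in sgControl and 6.65 and 6.40 in sgHNRNPC libraries. In RPF it was 2.51 and 2.28 in parental and 2.23 and 2.17 in sgControl libraries. TE positions are among 8208 genes in parental and a smaller set of 4190 in sgControl cells, so they are not ranks in the same genes. PDIA3 had a TE per kilobase above 97.9% of genes in parental and above 64.0% in sgControl cells. HSP90B1 was above 66.9% and 5.11%, and CANX above 64.1% and 11.6%. CALR was low in both, above 6.85% and 6.78% of genes. The part of GC content in the TE positions was not tested.

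**Figure D2:**
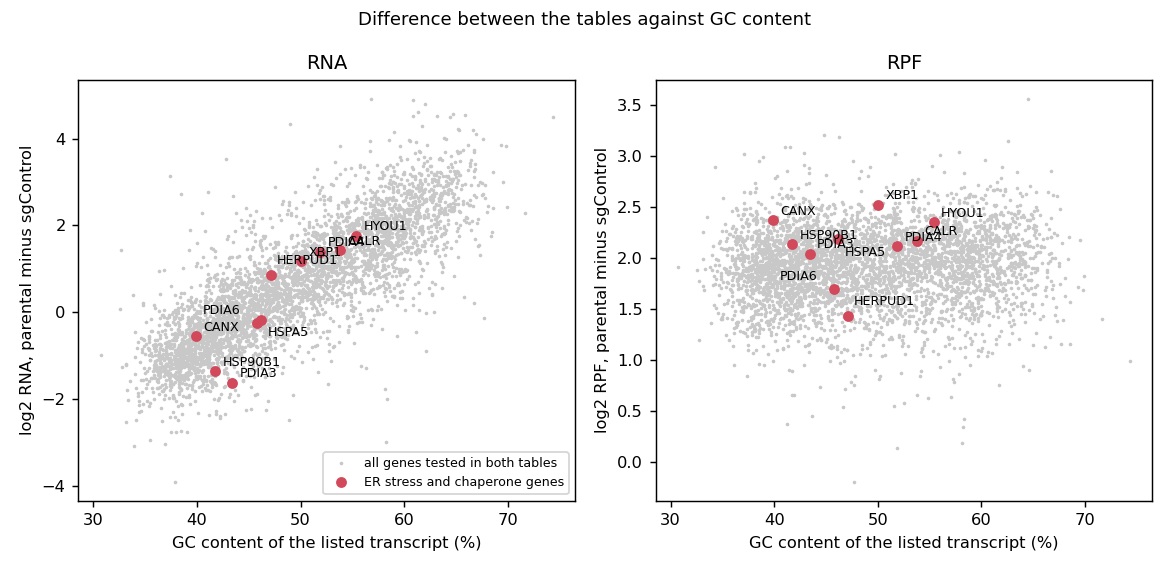
Difference between parental and sgControl cells in RNA (left) and RPF (right) on the log2 scale, each from its own table, against the GC content of the listed transcript. Grey points are 4189 genes tested in both tables and matched to the annotation, and red points the 10 ER genes, XBP1 included although its footprints were below the minimum in the knockdown. The RNA difference rises with GC content and the RPF difference does not, and the ER genes lie within the cloud in both.

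MDA-LM2 cells were set against parental cells to see what changes as the cells become highly metastatic. Footprints of CALR, CANX, PDIA4, PDIA6 and HYOU1 were lower in MDA-LM2 cells and those of HERPUD1 were higher, while RNA fell for HYOU1 and PDIA4. Of the 10 genes, 5 fell and 1 rose in RPF, where 12.0% of all genes tested passed in either direction (7.03% lower and 5.00% higher). In RNA 2 fell and none rose, where 15.2% of all genes passed (9.44% lower and 5.80% higher). In TE 0 passed, where 0.0357% of all genes did. At an unadjusted p under 0.05 in the limma test of TE, 2 of the 10 passed, PDIA6 and HERPUD1, against 5.42% of all genes (455 genes). Replicates of the lines did not overlap for 5 genes lower and 1 higher in RNA (33.6% and 28.5% of all genes), for 5 lower and 3 higher in RPF (27.6% and 25.7%), and for 2 lower and 4 higher in TE (15.8% and 20.5%). The direction of calls over all genes moved with the scaling, with 61.9% of RNA calls and 58.4% of RPF calls lower as deposited but 33.4% and 45.7% after rescaling to equal totals, which left the RNA calls of the 10 at 2 lower and the RPF calls at 4 lower and 1 higher. A gene passed at a Benjamini-Hochberg adjusted p under 0.05 in limma, adjusted over all genes tested, and changes are given on the scale of log2(value + 1) with their standard error. The median change over the 10 was -0.13 in RNA, -0.20 in RPF and 0.05 in TE, beside -0.02, -0.01 and 0.03 over all genes tested. The median standard error of the RPF change over all genes was 0.221. It was 0.088 (CANX) to 0.124 (PDIA6) in the genes that fell and 0.221 in HERPUD1. The share of all genes is not matched for this, so the RPF counts are not read as an excess.

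Base composition moved with this comparison too. Over the 4189 genes the RNA change correlated with transcript GC content at an r of -0.31 and the RPF change at -0.189, while MDA-LM2 RNA replicate 2 minus replicate 1 gave -0.38. After a loess correction of each library for GC content, the calls of the 10 genes stayed at 2 lower in RNA, HYOU1 (-0.49) and PDIA4 (-0.51), and at 5 lower and 1 higher in RPF.

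Of the chaperones of the Hsp70 and Hsp90 type, HYOU1 changed and the others did not pass the test. HYOU1 (ENST00000617285, chromosome 11, 119044188 to 119057205, minus strand) had RNA counts of 4232 and 4094 in parental and of 2751.0 and 2723 in MDA-LM2 cells. In footprints it had 345.5 and 297.6 against 210.9 and 217.3. Both MDA-LM2 replicates lay below both parental ones in either kind of library. RNA fell by 0.60 ± 0.11 (adjusted p 0.0128) and RPF by 0.58 ± 0.11 (adjusted p 0.000289). On this scale RNA fell by 34.2% and RPF fell by 33.1%, and TE changed by 0.02 ± 0.15. The RPF call of HYOU1 held without any single replicate, with changes from -0.69 to -0.47. The RNA call was lost without either parental replicate, with adjusted p up to 0.242 and changes from -0.63 to -0.58.

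HSPA5 (ENST00000324460, chromosome 9, 125234853 to 125241343, minus strand), the chaperone that holds the stress sensors inactive, had RNA counts of 2559 and 2767 in parental and of 2410.0 and 2735 in MDA-LM2 cells. Its RPF values were 669.3 and 720.5 against 739.3 and 734.2. The RNA ranges overlapped, and the RPF values of MDA-LM2 lay just above the parental ones. RNA changed by -0.05 ± 0.12 (adjusted p 0.799) and RPF by 0.09 ± 0.09 (adjusted p 0.589). HSP90B1 (ENST00000299767, chromosome 12, 103930410 to 103947926, plus strand) had RNA counts of 1951 and 2130 against 1812 and 1980.0, and RPF values of 671.5 and 706.9 against 600.4 and 675.0. Its ranges overlapped in both, with changes of -0.11 ± 0.11 in RNA and -0.11 ± 0.09 in RPF.

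Both lectin chaperones were lower in footprints. CALR (ENST00000316448, chromosome 19, 12938609 to 12944489, plus strand) had RPF values of 647.2 and 600.2 in parental and of 527.6 and 457.5 in MDA-LM2 cells. CANX (ENST00000247461, chromosome 5, 179698967 to 179731641, plus strand) had RPF values of 754.0 and 705.0 against 582.3 and 607.1. The lines did not overlap for either gene. CALR fell by 0.34 ± 0.09 (adjusted p 0.0126) and CANX by 0.29 ± 0.09 (adjusted p 0.0227) in RPF. The RNA of CALR went from 15165 and 14229 to 11323 and 10602, a change of -0.42 ± 0.13 that did not pass the test (adjusted p 0.0676), and that of CANX from 5440.0 and 5723 to 5029 and 4717, a change of -0.20 ± 0.12 (adjusted p 0.288). The RPF call of CANX was lost after quantile normalisation (-0.15), after rescaling to equal totals, and without parental replicate 1 or MDA-LM2 replicate 1. That of CALR was lost after quantile normalisation (-0.22) and without parental replicate 1 or MDA-LM2 replicate 2.

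The protein disulfide isomerases, which form and rearrange disulfide bonds, did not share a pattern. PDIA4 (ENST00000652332, chromosome 7, 149003062 to 149028505, minus strand) fell in both kinds of library, with RNA counts of 3666 and 3486 in parental and of 2638 and 2193 in MDA-LM2 cells. In RPF it had 346.5 and 327.9 against 266.7 and 234.1. The lines did not overlap in either, and the changes were -0.57 ± 0.13 in RNA (adjusted p 0.0283) and -0.43 ± 0.11 in RPF (adjusted p 0.00545). The RNA call was lost without either parental replicate (adjusted p up to 0.292), and the RPF call without parental replicate 1 or MDA-LM2 replicate 2 (adjusted p up to 0.0903).

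PDIA6 (ENST00000404371, chromosome 2, 10783393 to 10832485, minus strand) fell in footprints. Its RPF values were 181.3 and 174.1 in parental and 130.9 and 130.3 in MDA-LM2 cells, with no overlap and a change of -0.44 ± 0.12 (adjusted p 0.0154). Its RNA counts were 896.0 and 822.4 against 854.1 and 814.0, ranges that overlapped. PDIA6 thus had 20.2 and 21.2 RPF counts per 100 RNA counts in parental and 15.3 and 16 in MDA-LM2 cells, a TE change of -0.40 ± 0.17 that did not pass the test (adjusted p 0.890, unadjusted p 0.0327). The RPF call was lost without parental replicate 1 or MDA-LM2 replicate 2, at adjusted p up to 0.107.

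PDIA3 (ENST00000300289, chromosome 15, 43746438 to 43773278, plus strand) had RNA counts of 415.3 and 484.7 in parental and of 513.9 and 681.0 in MDA-LM2 cells, and RPF values of 312.2 and 318.8 against 324.3 and 333.8. MDA-LM2 replicate 2 was the highest RNA value, and the lines did not overlap in either kind of library. RNA changed by 0.40 ± 0.16 (adjusted p 0.142) and RPF by 0.06 ± 0.10 (adjusted p 0.767). The TE change was -0.34 ± 0.20 (adjusted p 0.907). In the logistic regression used in the study it passed at an adjusted p of 0.0369. That test takes the normalised values as reads and leaves out the spread between replicates.

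HERPUD1 (ENST00000439977, chromosome 16, 56932142 to 56944864, plus strand) was the member that rose. Its RPF values were 26.3 and 37.2 in parental and 53.9 and 49.8 in MDA-LM2 cells, and its RNA counts were 210.4 and 249.8 against 242.4 and 244.7. The lines did not overlap in RPF, and the MDA-LM2 RNA values lay within the parental range. RPF rose by 0.71 ± 0.22 (adjusted p 0.0298), 1.64-fold on the scale used, RNA changed by 0.09 ± 0.14, and TE by 0.62 ± 0.28 (adjusted p 0.903, unadjusted p 0.0419). The RPF call was lost without parental replicate 1 and without either MDA-LM2 replicate, at adjusted p up to 0.261.

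XBP1 (ENST00000216037, chromosome 22, 28794555 to 28800597, minus strand) had RNA counts of 468.5 and 480.7 in parental and of 446.3 and 411.4 in MDA-LM2 cells. In RPF it had 47.8 and 32.0 against 36.5 and 46.8. The RNA values of MDA-LM2 lay below the parental ones and the RPF ranges overlapped, with changes of -0.15 ± 0.11 (adjusted p 0.411) and 0.08 ± 0.23 (adjusted p 0.880).

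**Figure D3:**
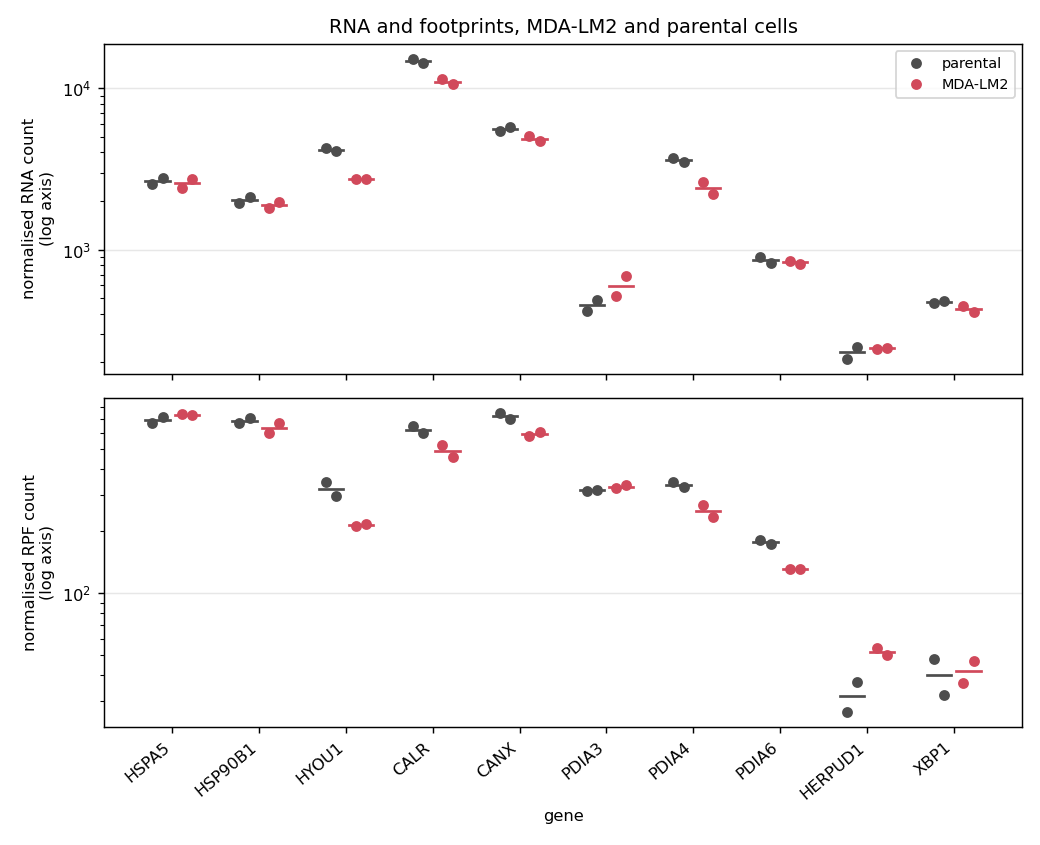
Normalised RNA counts (top) and RPF counts (bottom) of the 10 genes in parental (grey) and MDA-LM2 (red) cells, on log axes. Each point is 1 replicate and each line the mean of 2. HYOU1 and PDIA4 are lower in MDA-LM2 in both panels, CALR, CANX and PDIA6 are called lower in the bottom panel only, and HERPUD1 is higher there.

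A limit applies to XBP1 in both comparisons. ERN1 removes 26 bases from its mRNA, and the listed transcript is the form that still holds them, with a coding length of 783 bases (261 residues) against 1128 bases (376 residues) after removal. The counts therefore do not separate the forms. The stretch is shown because its removal is the event that makes the active factor. Capitals mark the gap between annotated exons (hg38, chr22:28796128-28796153, minus strand). A G stands at its start and just after its end, so removal of a stretch shifted downstream by a base leaves the same mRNA. The capitals therefore do not fix the cut sites of ERN1.
XBP1: ccGCAGCACTCAGACTACGTGCACCTCTgc

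Knockdown of HNRNPC asks what its loss does in MDA-MB-231 cells. RNA of HSPA5, CALR, PDIA4 and HYOU1 fell and that of HERPUD1 rose. Of the 9 genes tested, 4 fell and 1 rose in RNA, where 16% of all genes passed (11.3% lower and 4.72% higher). After quantile normalisation, or after the correction for GC content, 2 fell and 1 rose, and over all genes the lower share of RNA calls went from 70.5% to 52.5% and 51.3%. In RPF 0 of 9 passed, where 0.0233% of all genes did, and in TE 0 of 9, where 0% did. At an unadjusted p under 0.05 in limma, PDIA3 passed in RPF and in TE, against 7.68% and 7.75% of all genes. Replicates of the lines did not overlap for 4 genes lower and 2 higher in RNA (34.6% and 20.2% of all genes), for 1 lower and 1 higher in RPF (17.1% and 20.8%), and for 0 lower and 3 higher in TE (14% and 22.6%). The median change over the 9 was -0.08 in RNA, 0.08 in RPF and 0.06 in TE, beside -0.04, 0.02 and 0.06 over all genes tested. The median standard error of the RNA change over all genes was 0.082. It was 0.040 (CALR) to 0.055 (HYOU1) in the genes that fell and 0.137 in HERPUD1. The share of all genes is not matched for this, so the counts are not read as an excess.

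HSPA5 had RNA counts of 3157 and 2842 in sgControl and of 2691 and 2439 in sgHNRNPC cells. The lines did not overlap, and RNA fell by 0.23 ± 0.05 (adjusted p 0.00011), or fell by 14.5%. Its RPF values of 145.0 and 158.7 against 147.5 and 175.4 overlapped, with a change of 0.08 ± 0.16 (adjusted p 0.938). TE went from 4.60 and 5.59 RPF counts per 100 RNA counts to 5.48 and 7.19, a change of 0.31 ± 0.16 (adjusted p 0.642). The RNA call was lost without sgControl replicate 1, and without sgHNRNPC replicate 2, at adjusted p up to 0.0595.

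HYOU1 had RNA counts of 1299 and 1158 in sgControl and of 1129 and 1070.3 in sgHNRNPC cells. The change was -0.16 ± 0.06 (adjusted p 0.0362). It was lost with no minimum on the values, after quantile normalisation and after the correction for GC content (-0.12, adjusted p 0.162), as well as without sgControl replicate 1 or sgHNRNPC replicate 2, where the adjusted p reached 0.539. HSP90B1 had RNA counts of 5421 and 5035 against 5222 and 4939, ranges that overlapped, with a change of -0.04 ± 0.04 (adjusted p 0.548). The RPF values of HYOU1 were 58.2 and 65.8 against 64.3 and 66.5, and those of HSP90B1 144.2 and 167.9 against 137.8 and 162.8, so both genes overlapped between the lines in footprints.

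The lectin chaperones diverged in RNA. CALR had counts of 5650 and 5282 in sgControl and of 4945 and 4879 in sgHNRNPC cells, and CANX had counts of 8415 and 7885 against 8506 and 8306. CALR did not overlap between the lines and fell by 0.15 ± 0.04 (adjusted p 0.00317), a call lost without sgControl replicate 1 (adjusted p 0.200). CANX overlapped and changed by 0.05 ± 0.04 (adjusted p 0.475). In RPF CALR had 129.2 and 146.3 against 125.3 and 122.3, and CANX 131.0 and 149.3 against 143.6 and 151.2, with changes of -0.15 ± 0.16 and 0.07 ± 0.16.

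Of the disulfide isomerases, PDIA4 fell in RNA. Its counts were 1383 and 1330 in sgControl and 1167 and 1227 in sgHNRNPC cells, a change of -0.18 ± 0.05 (adjusted p 0.0091). The call was lost after quantile normalisation and after the correction for GC content (adjusted p 0.0517), and without sgControl replicate 1 or sgHNRNPC replicate 1. PDIA6 overlapped between the lines, with RNA counts of 1065 and 966.5 against 976.9 and 942.6 and RPF values of 52.8 and 55.1 against 56.9 and 49.6.

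PDIA3 had the largest footprint difference of the 9. Its RPF values were 70.0 and 81.6 in sgControl and 100.8 and 115.3 in sgHNRNPC cells, and its RNA counts were 1398 and 1362 against 1439 and 1476. The lines did not overlap in either kind of library. RPF changed by 0.51 ± 0.17 (adjusted p 0.467, unadjusted p 0.00581) and TE by 0.43 ± 0.16 (adjusted p 0.584, unadjusted p 0.0220), so neither passed over all genes. In MDA-LM2 cells the TE change of PDIA3 had the opposite sign, -0.34 ± 0.20, and the difference between the comparisons was not tested.

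HERPUD1 had RNA counts of 124.0 and 126.3 in sgControl and of 160.8 and 170.6 in sgHNRNPC cells. The lines did not overlap, and RNA rose by 0.40 ± 0.14 (adjusted p 0.0308), 1.32-fold. The call was lost when any single library was left out, at adjusted p from 0.0646 to 0.238, with changes from 0.36 to 0.44. Its RPF values were 9.15 and 13.1 against 18.6 and 9.22 and overlapped.

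XBP1 had RNA counts of 206.6 and 212.1 in sgControl and of 244.7 and 235.9 in sgHNRNPC cells, and RPF values of 5.44 and 6.52 against 8.75 and 14.8. Both were higher in sgHNRNPC cells without overlap, on few footprints. With no minimum on the values (8980 genes tested), RNA changed by 0.20 ± 0.11 (adjusted p 0.278) and RPF by 0.83 ± 0.44 (adjusted p 0.750).

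**Figure D4:**
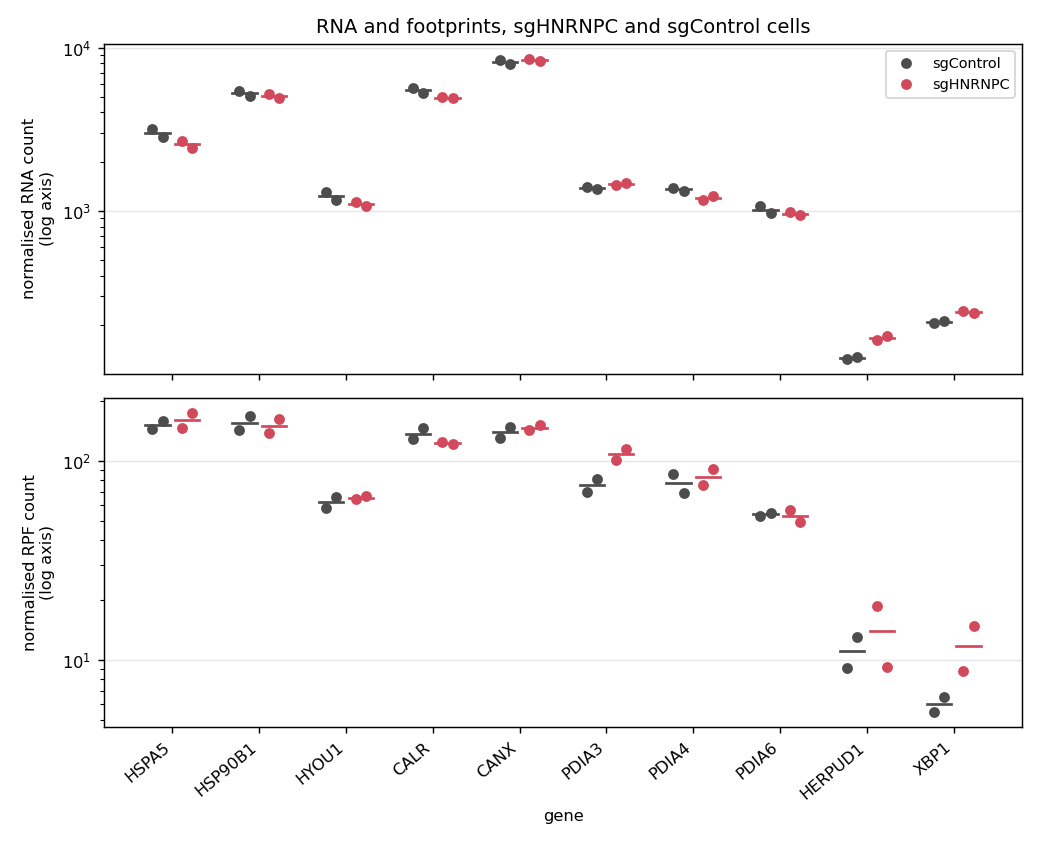
Normalised RNA counts (top) and RPF counts (bottom) of the 10 genes in sgControl (grey) and sgHNRNPC (red) cells, on log axes. Each point is 1 replicate and each line the mean of 2. The RNA of HSPA5, HYOU1, CALR and PDIA4 is slightly lower and that of HERPUD1 higher in sgHNRNPC cells, and the RPF replicates overlap for most genes.

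**Figure D5:**
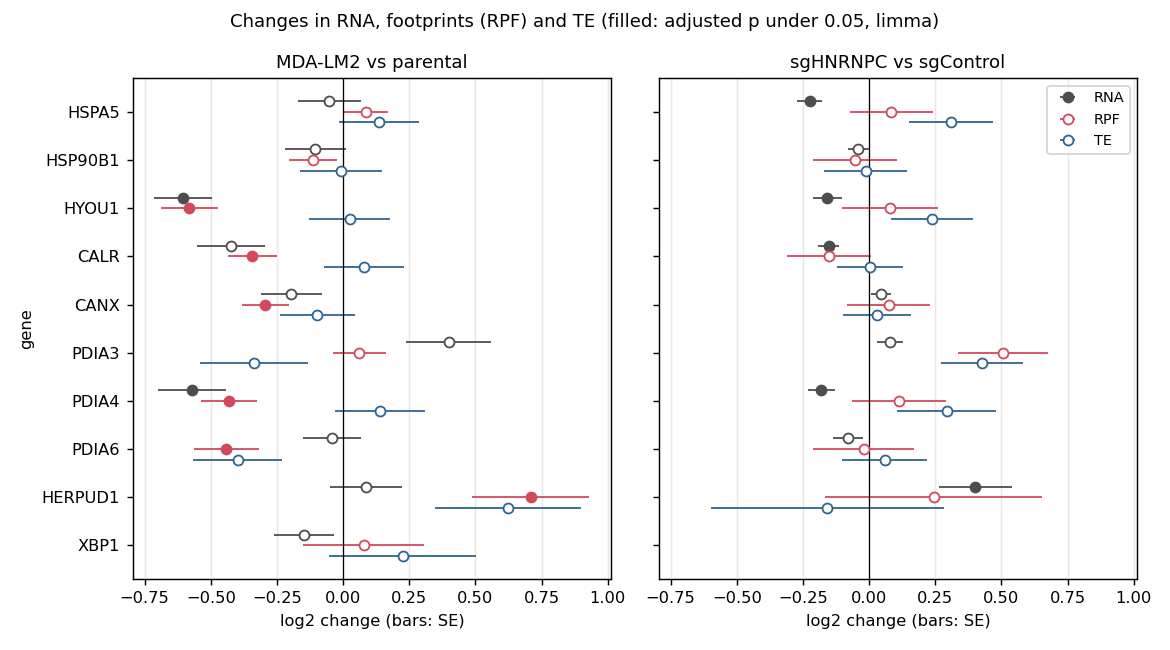
Log2 change with its standard error for RNA (grey), RPF (red) and TE (blue) of the 10 genes in MDA-LM2 against parental cells (left) and in sgHNRNPC against sgControl cells (right), where XBP1 was not tested. Filled points passed an adjusted p under 0.05 in limma. On the left 2 RNA and 6 RPF points are filled and on the right 5 RNA points, and no TE point is filled in either panel.

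Because HNRNPC recognises poly(U), the 3′ UTRs of the listed transcripts were searched for a C followed by 6 U on the transcript strand. Runs of U after another base were not counted, so a gene without this site may still hold poly(U). The site was present in 6 of the 10 genes (HSPA5, HYOU1, CALR, CANX, PDIA4 and PDIA6) and in 43.4% of genes tested in the MDA-LM2 comparison (3548 of 8177 with a 3′ UTR). The site of each of the 6, or its first where there are 2, is shown with 10 bases on either side, capitals marking the motif.
HSPA5: uuucugguggCUUUUUUuaaaauuauu
HYOU1: uugucuuuucCUUUUUUuuuuuuuuuu
CALR: ccuccccgccCUUUUUUuuuuuuuuuu
CANX: agcaaacuaaCUUUUUUuuuuuuaaca
PDIA4: ucucggauucCUUUUUUuuuuuuuuua
PDIA6: uccccacaaaCUUUUUUaaacaaaaaa

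In the sites shown the run of U went on beyond the motif in CALR, HYOU1, PDIA4, CANX and HSPA5, by a single base in HSPA5, and ended with it in PDIA6. The TE changes of the genes with the site spanned -0.40 (PDIA6) to 0.14 (PDIA4) in MDA-LM2 cells and 0.003 (CALR) to 0.31 (HSPA5) in sgHNRNPC cells. Those of the genes without it spanned -0.34 (PDIA3) to 0.62 (HERPUD1) and -0.16 (HERPUD1) to 0.43 (PDIA3). The ranges overlapped in both comparisons. In MDA-LM2 cells the median TE change was 0.05 with the site (6 genes) and 0.11 without it (4 genes). In sgHNRNPC cells it was 0.15 with the site (6 genes) and -0.01 without it (3 genes). The difference between these groups was not tested.

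The rest of the pathway was read from lists of genes around the 10. Their calls stand beside the shares of all genes given above, in MDA-LM2 cells 5.80% higher and 9.44% lower in RNA and 5.00% and 7.03% in RPF, and in the knockdown 4.72% and 11.3% in RNA. ER folding helpers, the co-chaperones, oxidases and prolyl isomerases of the ER, had 20 genes, of which 17 were tested in MDA-LM2 cells and 12 in the knockdown, and 0 passed in RNA, RPF or TE in either. Their lowest adjusted p was 0.0719. The median RNA change of this list was -0.04 in MDA-LM2 cells and 0.02 in the knockdown.

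Translocation and N-glycosylation, the entry of proteins into the ER and the transfer of their first sugars, had 21 of 22 genes tested in both. In MDA-LM2 cells 2 of the 21 fell in RNA, close to the share of all genes, and 3 in RPF. SRPRA, a subunit of the receptor for the signal recognition particle, had RPF values of 221.2 and 218.7 in parental and of 123.7 and 116.7 in MDA-LM2 cells, a fall by 0.87 ± 0.12 (adjusted p 3.29e-06). SEC61G, a subunit of the translocation channel, fell by 0.68 ± 0.16 (adjusted p 0.00369) and SSR4, of the translocon-associated complex, by 0.44 ± 0.12 (adjusted p 0.0142) in RPF. In RNA SRPRA fell by 0.58 ± 0.13 and SSR4 by 0.51 ± 0.12. In sgHNRNPC cells the catalytic oligosaccharyltransferase subunit STT3B rose by 0.21 ± 0.05 and its partner RPN1 fell by 0.18 ± 0.06 in RNA.

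ER-associated degradation, which returns misfolded proteins to the cytosol, had 18 of 19 genes tested in MDA-LM2 cells, where SELENOS passed. SELENOS, a selenoprotein of the ER membrane, had RNA counts of 171.7 and 140.9 in parental and of 379.6 and 284.6 in MDA-LM2 cells, and rose by 1.08 ± 0.18 in RNA (adjusted p 0.00945) and by 0.61 ± 0.20 in RPF (adjusted p 0.0396). In the knockdown NPLOC4 (-0.24 ± 0.07) and VCP (-0.21 ± 0.05), the ATPase that NPLOC4 serves, fell in RNA.

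Among 12 stress sensors and transcription factors, 8 were tested in MDA-LM2 cells. ATF6 rose in RNA by 0.46 ± 0.11 (adjusted p 0.0341), from 383.2 and 364.7 to 513.9 and 513.4. In RPF ATF4 rose by 0.83 ± 0.19 (adjusted p 0.00269), from 36.2 and 45.9 to 71.9 and 74.0. MBTPS1, a protease that cleaves ATF6, rose by 1.07 ± 0.26 in RPF (adjusted p 0.00554). Of the 8, 6 did not pass in RPF, and 4 of the 8 RPF changes were negative. In the knockdown 5 were tested. ATF4 RNA rose by 0.44 ± 0.05 (adjusted p 3.94e-13), from 1966 and 2023 to 2646 and 2747, and CREB3L2 RNA fell by 0.29 ± 0.09 (adjusted p 0.0097). The sensor genes ERN1 and EIF2AK3 were tested in neither comparison.

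A list of 11 genes of the PERK arm also holds a subunit of eIF2, which PERK acts on. Of these, 8 were tested in MDA-LM2 cells and 4 in the knockdown. In MDA-LM2 cells 5 of the 8 did not pass in RNA and 7 did not in RPF. In the knockdown 2 of the 4 did not pass in RNA and 3 did not in RPF. Whether PERK was active was not tested. In MDA-LM2 RNA 3 rose, CEBPB (0.84 ± 0.13), VEGFA (0.73 ± 0.12) and ASNS, asparagine synthetase (0.70 ± 0.18), and in RPF CEBPB rose (0.74 ± 0.16). In sgHNRNPC cells ASNS had RNA counts of 399.3 and 437.7 against 243.7 and 241.1 in sgControl and rose by 0.78 ± 0.09 in RNA (adjusted p 2.16e-10). Its RPF rose by 1.29 ± 0.24 (adjusted p 0.0305), the single RPF call over all 4283 genes, and VEGFA RNA rose by 0.41 ± 0.11. None of these lists had a TE call in either comparison.

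Chaperones of the cytosol were taken for contrast, with 16 of 16 genes tested in both comparisons. HSP90AA1 RNA rose in MDA-LM2 cells by 0.60 ± 0.16 (adjusted p 0.0440), on values of 8695 and 11425 against 6421 and 6730, and HSPB1 RPF fell by 0.37 ± 0.11 (adjusted p 0.0186). In the knockdown CCT2 RNA fell by 0.16 ± 0.05 (adjusted p 0.0225). Their median change in MDA-LM2 cells was 0.07 in RNA and 0.01 in RPF, beside -0.13 and -0.20 for the ER genes. In the knockdown it was 0.03 in RNA and 0.09 in RPF, beside -0.08 and 0.08 for the ER genes. The differences between the lists were not tested.

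The genes whose 4 changes (RNA and RPF in both comparisons) lay nearest to those of HSPA5 were NUP88, CSRP1, SEPTIN2, DHX15 and ECT2, among 4280 genes tested in both tables. Their Euclidean distances on the log2 scale were 0.08 to 0.11. None of these genes is on a list above. The standard errors of the 4 changes of HSPA5 ran from 0.05 (knockdown RNA) to 0.16 (knockdown RPF). The distances are not larger than that, so nothing is read from these neighbours. XBP1 has no such neighbours, as it was not tested in both tables.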

How the data were processed

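RNA-seq (SMARTer Pico Input v2 kit) and ribosome profiling libraries were made from the same lysates, as biological duplicates. The authors deposited a signal value per transcript, a read count normalised by the median of ratios within each kind of library and each pair of lines. The submitters' processing notes name cutadapt 2.3, UMI-tools, Bowtie2 2.3.5, SAMtools and hg38. The annotation release, and whether a correction for stalled ribosomes was applied, are not given in the sources used here. Values compare genes relative to others in a library, and not amounts per cell.

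Transcripts were named through GENCODE 44 (97.9% matched in each table). Genes whose mean reached 10 in RNA and in RPF libraries alike were tested on log2(value + 1) with limma 3.58.1 (lmFit, eBayes with trend) in R 4.3.3, two-sided, with Benjamini-Hochberg adjustment over all genes tested and a threshold of 0.05. TE was the interaction of line and kind of library, with no term for the lysate that RNA and RPF libraries share. A fit of TE within lysates was run as an alternative, and in it none of the genes tested of the 10 passed. Other values were computed in Python 3.11.15 with pandas 2.3.3 and numpy 2.4.6, and the tests were checked on simulated data. Named genes are the 10, HNRNPC, up to 3 rising and 3 falling genes of each list, and the 5 nearest HSPA5. A result of the list of ER-associated degradation is not reported here. Members and lists were chosen with earlier results of these data known. Alternatives changed the pseudocount, minimum, scaling, replicate block, test and each replicate, and a correction for GC content (loess, span 0.5) was chosen after seeing the data.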

Additional observations from a re-analysis of the deposited data

How the results depend on the processing

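With 2 replicates per line, single libraries decided many calls. Leaving out each replicate in turn gave 0 to 5 genes called in RNA and 1 to 6 in RPF of MDA-LM2 cells, against 2 and 6 with all libraries, and 0 to 4 in RNA of the knockdown, against 5. The 5 RNA calls in MDA-LM2 cells came without MDA-LM2 replicate 1 and added CALR, CANX and PDIA3. In the knockdown, quantile normalisation gave 3 RNA calls, beside 236 higher and 261 lower over all genes. The GC correction gave 3, beside 307 higher and 324 lower. Logistic regression gave 1 TE call in MDA-LM2 cells (PDIA3). At an unadjusted p under 0.01 it gave 2 (PDIA3 and PDIA6) and in the knockdown 2 (PDIA3 and HSPA5). The share of all genes under that unadjusted rule is not given here, so nothing is read from these 2 counts. Over all genes logistic regression called 181 in MDA-LM2 cells and 11 in the knockdown, against 3 and 0 in limma. With the replicate block 3 of the genes were called in RNA and 6 in RPF of MDA-LM2 cells and 5 in RNA of the knockdown, PDIA3 RNA being the gain (0.3983). Nothing in the labels pairs lines by number, and deviations of same-numbered samples correlated at -0.004 to 0.234. The planned count test on recovered RNA reads was not run.

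Of 57 values of the 10 genes, 0 of 13 called and 26 of 44 not called changed sign under some alternative, and the cause was not tested. After rescaling to equal totals, RNA in MDA-LM2 cells was 0.0228 for XBP1, 0.0642 for HSP90B1, 0.1183 for HSPA5 and 0.1279 for PDIA6, and TE was -0.0341 for CALR and -0.0905 for HYOU1, with -0.0051 for CALR TE in the knockdown. After quantile normalisation, RNA in MDA-LM2 cells was 0.0666 for CANX, 0.0354 for HSP90B1, 0.1293 for HSPA5 and 0.0395 for PDIA6, RPF of HSP90B1 was 0.016, and TE was -0.1431 for CALR and -0.0746 for HYOU1. In the knockdown that setting gave a TE of -0.0512 for CANX, -0.0553 for CALR and -0.0207 for PDIA6. After the GC correction TE was 0.0032 for HSP90B1 and -0.0449 for HYOU1 in MDA-LM2 cells and -0.0572 for CALR in the knockdown.

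Without single replicates, RNA in MDA-LM2 cells ranged from -0.1036 to 0.0198 for PDIA6, -0.0365 to 0.2101 for HERPUD1 and -0.143 to 0.0397 for HSPA5. RPF of XBP1 ranged from -0.2045 to 0.3595, and TE from -0.0341 to 0.0179 for HSP90B1, -0.0761 to 0.5248 for XBP1 and -0.0593 to 0.1075 for HYOU1. In the knockdown RNA ranged from -0.094 to 0.0126 for HSP90B1 and -0.0017 to 0.0924 for CANX. RPF there ranged from -0.019 to 0.1687 for CANX, -0.0089 to 0.1658 for HYOU1, -0.174 to 0.0652 for HSP90B1, -0.1186 to 0.0763 for PDIA6, -0.0431 to 0.2676 for PDIA4, -0.226 to 0.7142 for HERPUD1 and -0.0399 to 0.2077 for HSPA5. TE there ranged from -0.1114 to 0.1704 for CANX, -0.1344 to 0.1407 for CALR, -0.0417 to 0.1598 for PDIA6, -0.1758 to 0.1484 for HSP90B1 and -0.6703 to 0.355 for HERPUD1.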
